A study of Mus musculus with 24 samples.

Results

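The AP-2 transcription factors of the mouse are the 5 genes Tfap2a, Tfap2b, Tfap2c, Tfap2d and Tfap2e. They were found in the deposited count table through their Ensembl identifiers, and all 5 are among its 54752 genes. Tfap2a and Tfap2b were the 2 of the 5 that passed a filter on low counts, as did 16463 genes in all, and were tested. Gene expression was measured by bulk RNA-Seq in the ductus arteriosus (DA), the fetal vessel that joins the pulmonary artery to the descending aorta, and in the ascending aorta of E18.5 mouse embryos on a C57/Black6 background. The study set Prdm6-deficient vessels against control vessels, with the DA as its main tissue.

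The Prdm6-deficient embryos were Wnt1Cre;PRDM6f/f, with both Prdm6 alleles floxed and with Cre under the Wnt1 promoter, which is active in the neural crest, so that cells of other origin in the same vessels keep an intact gene. They gave 5 DA samples (replicates 1, 2, 5, 6 and 7) and 5 aorta samples, and DA replicate 4 was not analysed here. DA replicates 1 and 2 were each pooled from 2 embryos. The controls were 7 DA and 6 aorta samples. Most were PRDM6wt/f embryos without Cre, control DA replicate 3 was PRDM6wt/wt, and control DA replicate 2 and control aorta replicate 3 came from the same Wnt1Cre;PRDM6wt/wt embryo. Both vessels were sequenced from 6 control embryos. The animal numbers fall into 2 runs. The first run holds 2 control and 3 Prdm6-deficient DA samples (replicates 1, 5 and 6) and 1 control and 2 Prdm6-deficient aorta samples, and the second run holds the others.

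AP-2 proteins bind GC-rich DNA as dimers through a helix-span-helix domain and act in the neural crest, the surface ectoderm, the limb and the kidney. Tfap2b is known for its place in the DA: mutations of the human gene cause Char syndrome, in which the DA stays patent after birth, and in the mouse the gene is expressed in DA smooth muscle. Tfap2a is needed early in neural crest and face development, and its protein can pair with that of Tfap2b.

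Total counts per library ranged from 15163974 to 22610547, with a median of 19985259. A level of 3 counts in a library, taken here as the smallest that can be told from 0, stood for 0.135 to 0.201 CPM (counts scaled to library size with TMM factors), and this limit covers counting error only. Prdm6, the targeted gene, was measured first as a check of the labels. Its level was 78.1, 70.8, 77.7, 78.5 and 58.6 CPM in Prdm6-deficient DA replicates 1, 2, 5, 6 and 7, and in control DA the lowest value was 84.9, the median 104 and the highest 128 CPM. In the aorta it was 69.6, 70.0, 68.5, 81.2 and 61.9 CPM in Prdm6-deficient replicates 1 to 5, and 95.6, 109 and 135 CPM at the lowest, the median and the highest of the controls. The Prdm6-deficient and control libraries did not overlap in either vessel, so every library labelled Prdm6-deficient was below every control of its vessel, by a modest drop. The mean was 67.5% of control in the DA (log2 fold change -0.57, SE 0.11, edgeR adjusted p = 0.000553) and 62.0% in the aorta (-0.69, SE 0.11, edgeR adjusted p = 0.00017). Each count is for the gene as a whole, without a value for the floxed exons alone.

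The tissue was checked with 6 smooth muscle markers (Myh11, Acta2, Tagln, Cnn1, Smtn and Des), all of which passed 3 counts in all 23 libraries. Their summed level was 13227, 17192 and 23516 CPM at the lowest, the median and the highest of the control DA libraries, and 10854, 9518, 11523, 10508 and 9722 CPM in the Prdm6-deficient DA. It was 8224 to 11730.1 CPM in control aorta and 9005 to 10685 CPM in Prdm6-deficient aorta, so the control DA libraries were above all others. Several libraries stood apart by markers of other cells. Control DA replicate 3 had the highest sum of 8 melanocyte markers (237 CPM), control aorta replicate 4 had the highest such sum of the aorta libraries (15.7 CPM), control DA replicate 7 had 59.5 CPM of Mbp, a gene of Schwann cells that was at most 12.3 CPM in the other control DA libraries, control DA replicate 1 had 865 CPM of 5 heart muscle markers, and control DA replicates 2 and 7 had 51.8 and 45.0 CPM of 4 brown fat markers.

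Tfap2b (ENSMUSG00000025927.13) lies on chromosome 1 at 19208914 to 19238576 on the plus strand of mm10, with 6338 bases of exon. RefSeq places its start at position 19212054, which is 3140 bases inside the gene as GENCODE draws it. The 150 bases before that start, which belong to an intron of the transcripts Tfap2b-201 and Tfap2b-204 and to no annotated UTR, are shown because the level of this gene carries the main difference between the groups. They are RefSeq sequence of build GRCm38.p6, plus strand, chr1:19211904-19212053.
Tfap2b: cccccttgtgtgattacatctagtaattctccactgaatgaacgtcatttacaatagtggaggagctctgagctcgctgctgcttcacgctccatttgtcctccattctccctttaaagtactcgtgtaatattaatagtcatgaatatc
The stretch is in lower case throughout because the AP-2 consensus GCCNNNGGC, which reads the same on both strands, is not in it.

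Tfap2b was measured in every control DA library, with 18.6 CPM at the lowest, 28.4 at the median and 59.7 at the highest. In the Prdm6-deficient DA it was 3.18, 0, 2.38, 0.862 and 0.0491 CPM in replicates 1, 2, 5, 6 and 7. Control DA replicates 3, 5 and 7 were the highest, the Prdm6-deficient libraries ran from no count to 52 counts, and the groups did not overlap. In control aorta it was 0.606, 1.70 and 9.98 CPM at the lowest, the median and the highest, and in Prdm6-deficient aorta it was 0.0530, 0, 1.99, 2.28 and 2.39 CPM in replicates 1 to 5. Control aorta replicates 4 and 5 were above the other aorta libraries, and the remaining control values lay among those of the Prdm6-deficient aorta. The spread within groups was wide: the mean was 35.9 ± 16.9 CPM (SD, n = 7) in control DA, 1.29 ± 1.43 (SD, n = 5) in Prdm6-deficient DA, 3.52 ± 3.62 (SD, n = 6) in control aorta and 1.34 ± 1.21 (SD, n = 5) in Prdm6-deficient aorta.

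**Figure D1:**
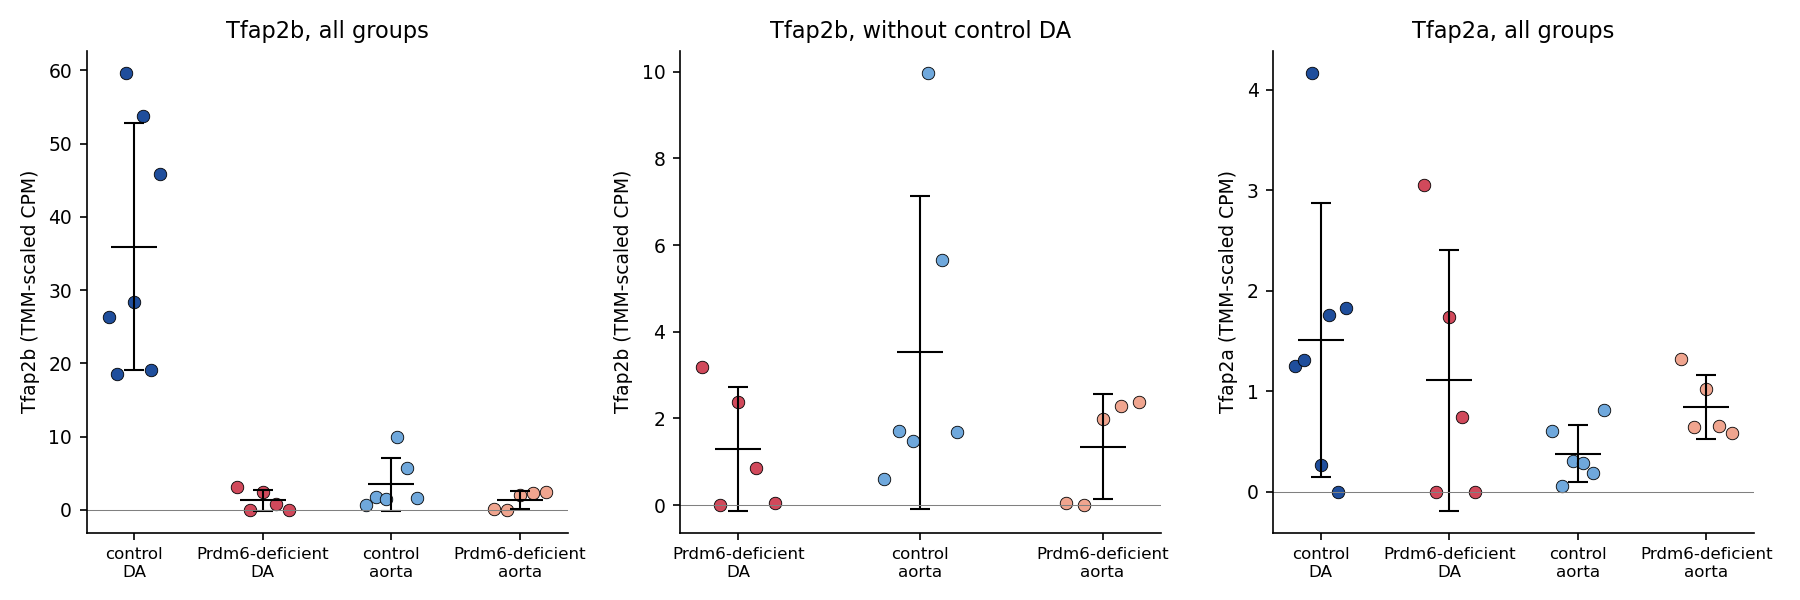
Tfap2b and Tfap2a in TMM-scaled CPM on the vertical axes, with 1 point per library, horizontal marks at the group means and bars of 1 SD. All 7 control DA libraries have at least 18.6 CPM of Tfap2b and stand above the other 16, which are drawn again on a smaller scale in the middle plot, while the groups overlap for Tfap2a.

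The Prdm6-deficient DA had 3.60% of the Tfap2b level of control DA, a mean 27.8-fold lower (log2 fold change -4.80, SE 0.86, edgeR adjusted p = 0.000279). A gene was called where the adjusted p was below 0.01 and the log2 fold change beyond 0.5 either way, and Tfap2b was the 1 of the 2 tested AP-2 genes called in this comparison, where 5.43% of all tested genes (894) were called, 2.82% lower and 2.61% higher. The aorta gave -1.39 (SE 0.79, edgeR adjusted p = 0.501), against 2.45% of genes called (404), 0.826% lower and 1.63% higher. In that comparison edgeR called 0 of the 2 AP-2 genes, 0 had an unadjusted p under 0.05 and DESeq2 called 0. The difference between the effects in the vessels was -3.41 on the log2 scale (SE 1.11, edgeR adjusted p = 0.0763). It did not pass the threshold of 0.01, which 2.65% of genes passed, so the Prdm6 effect on Tfap2b is not shown to differ between DA and aorta. Without control aorta replicate 4 that difference was -4.06 (edgeR adjusted p = 0.0265), and the aorta value was -0.73 (edgeR adjusted p = 0.866). Bulk counts do not tell fewer Tfap2b-expressing cells from less Tfap2b RNA per cell.

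Leaving out each library in turn kept Tfap2b called in the DA, with log2 fold changes from -5.40 to -4.48, and the largest came without Prdm6-deficient DA replicate 1, the highest of its group (edgeR adjusted p = 0.00156 at most). Within the first run of animal numbers, the means were 39.1 CPM in 2 control and 2.14 CPM in 3 Prdm6-deficient DA samples (log2 fold change -4.19, edgeR adjusted p = 0.0136), the same direction but not called. Within the second run they were 34.7 CPM in 5 control and 0.0245 CPM in 2 Prdm6-deficient samples, which held 1 count between them (edgeR adjusted p = 0.000195). The ratio of the second pair of means was 1413, with a 95% counting interval from 254 to 55807 that covers counting error only. In the aorta the second run gave -2.26 (edgeR adjusted p = 0.334), and the first run holds 1 control aorta, too few for a value.

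Between the vessels of control embryos, Tfap2b was 10.2-fold higher in the DA (log2 fold change 3.34, SE 0.72, edgeR adjusted p = 0.00193), again the 1 called of 2 tested, in a comparison that called 5.36% of genes (882), 3.16% higher and 2.19% lower. The lowest DA library, at 18.6 CPM, was above the highest aorta library, at 9.98. This comparison uses the same control samples as those with Prdm6-deficient vessels, so these values and those above are not independent. The second run alone gave 3.14 (edgeR adjusted p = 0.00278), and without control aorta replicate 4 the value was 4.0 (edgeR adjusted p = 0.000705). With the 6 embryos that gave both vessels as a block it was 3.56 (edgeR adjusted p = 0.000259). In these 6 embryos the DA was above the aorta each time. The ratios were 43.5, 12.5, 2.84, 32.1, 11.1 and 8.09 in the embryos of control DA replicates 1, 2, 4, 5, 6 and 7.

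The Prdm6-deficient vessels were not told apart by Tfap2b. The log2 fold change of Prdm6-deficient DA against Prdm6-deficient aorta was -0.07 (SE 0.86, edgeR adjusted p = 0.994), in a comparison with 0.267% of genes called (44). There edgeR called 0 of the 2 AP-2 genes, 0 had an unadjusted p under 0.05 and DESeq2 called 0. With an SE this wide the test sets no narrow limit on a difference. In the embryo of Prdm6-deficient DA replicate 5 Tfap2b was 2.38 CPM in the DA and 1.99 in the aorta. In that of replicate 7 it was 0.0491 and 2.39 CPM. The pool of DA replicate 2 had no count, and its 2 embryos had 1 count and none in the aorta. Per kilobase of exon the order of the mean levels was control DA (5.67 CPM per kb), control aorta (0.556), Prdm6-deficient aorta (0.212) and Prdm6-deficient DA (0.204), and of the neighbours in this order the control DA and control aorta alone differed by the test.

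**Figure D2:**
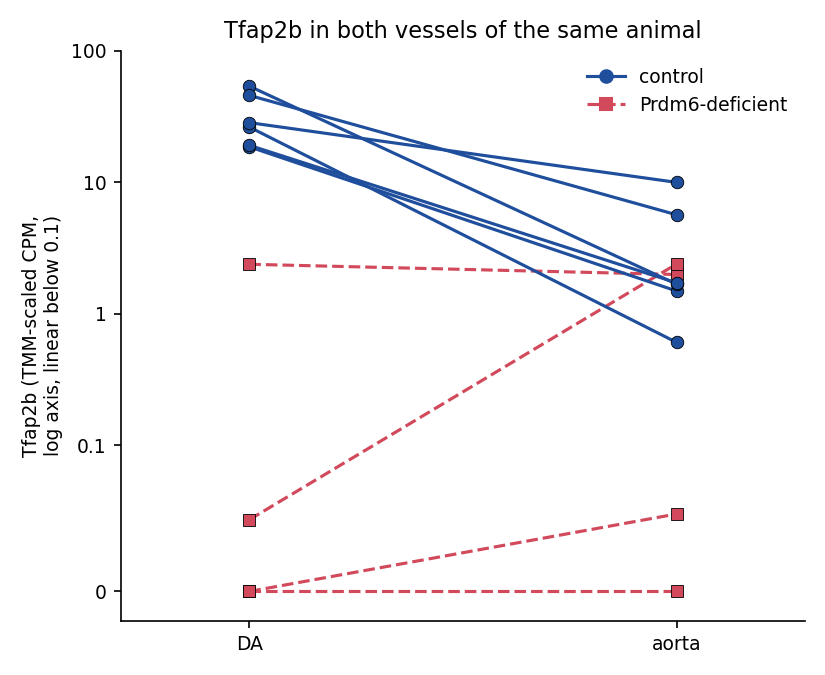
Tfap2b in DA and aorta of the same embryos, in TMM-scaled CPM on a log axis that is linear below 0.1. Solid lines join the vessels of 6 control embryos, all higher in the DA by 2.84-fold or more, and broken lines join those of the Prdm6-deficient embryos, with the pooled DA replicate 2 joined to the aortas of both of its embryos.

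Tfap2a (ENSMUSG00000021359.16, chromosome 13, 40715302 to 40738376, minus strand) was far lower than Tfap2b in control DA, at a mean of 0.309 against 5.67 CPM per kb. It was 0, 1.31 and 4.17 CPM at the lowest, the median and the highest of control DA, and 3.05, 0, 1.74, 0.747 and 0 CPM in Prdm6-deficient DA replicates 1, 2, 5, 6 and 7. In control aorta it was 0.0520, 0.299 and 0.815 CPM, and in Prdm6-deficient aorta 1.32, 0.641, 1.02, 0.651 and 0.585 CPM in replicates 1 to 5. Libraries without a single Tfap2a count occurred in both DA groups, control DA replicate 3 was the highest of all, and the groups overlapped in every comparison. The log2 fold change was -0.45 in the DA (SE 1.0, edgeR adjusted p = 0.854), 1.16 in the aorta (SE 1.04, edgeR adjusted p = 0.776) and 2.0 between control DA and control aorta (SE 1.0, edgeR adjusted p = 0.251). Without control DA replicate 3 the DA value changed sign, to 0.04. Within the first run the DA means were 2.74 CPM in control and 1.85 in Prdm6-deficient samples, and within the second run 1.02 CPM and no count.

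The other members were near or at 0. Tfap2e, known from the olfactory bulb, had 13 counts in control DA replicate 3, 6 in control aorta replicate 1 and 1 in control DA replicate 7. Tfap2c, which acts in trophoblast and germ cells, had 1 count, in control DA replicate 3. Tfap2d, a gene of the midbrain and retina and the neighbour of Tfap2b on chromosome 1, had none in 23 libraries. No fold is given for these genes. Control DA replicate 3 thus had the highest value of Tfap2b, Tfap2a and Tfap2e, and it also had the most melanocyte RNA.

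**Figure D3:**
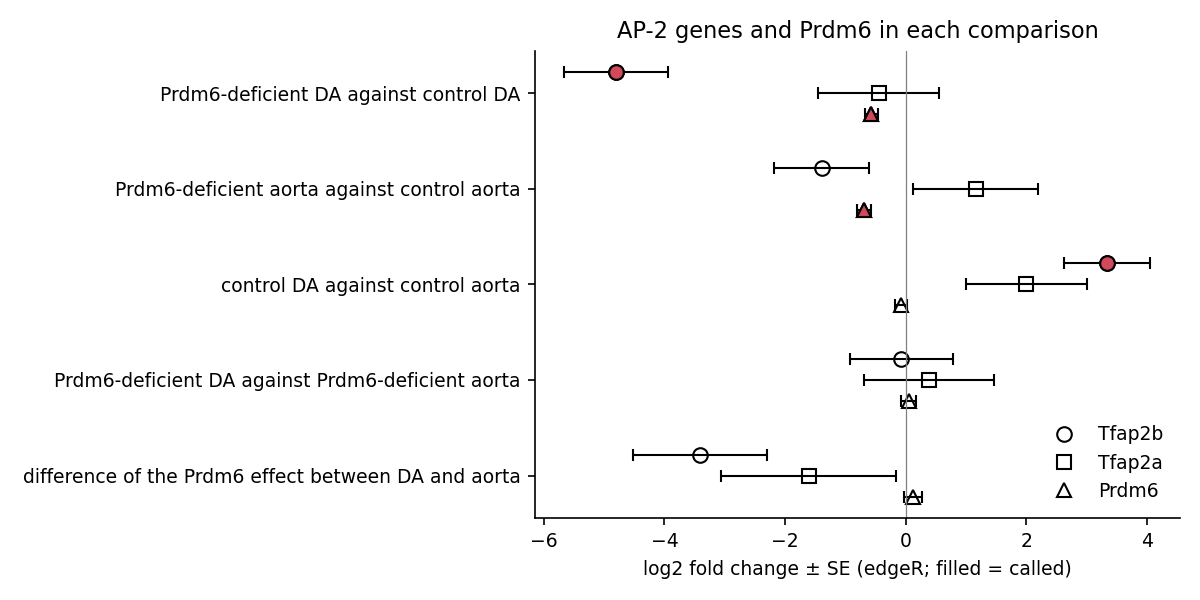
Log2 fold changes of Tfap2b, Tfap2a and Prdm6 on the horizontal axis in each comparison, with bars of 1 SE from edgeR and filled marks for called genes. Tfap2b is filled at -4.80 in the DA and at 3.34 between the control vessels, Prdm6 at -0.57 and -0.69 in the Prdm6-deficient vessels, and Tfap2a in none.

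The relation of the members to Tfap2b was examined within the groups of at least 6 samples, on log2 CPM. Only Tfap2a had enough counts, which left 2 relations. In control DA (n = 7) Pearson's r was 0.69 (exact permutation p = 0.0655, adjusted over both relations 0.131) and Spearman's rho 0.71 (exact permutation p = 0.0881, adjusted 0.176), and without replicates 3 and 5, the farthest from the median of Tfap2b, r was 0.49. In control aorta (n = 6) r was -0.33 (exact permutation p = 0.519, adjusted 0.519) and rho -0.60 (exact permutation p = 0.242, adjusted 0.242), with r = -0.40 without replicates 4 and 5. The tests were 2-sided, and neither relation passed 0.05. A run holds at most 5 control samples of a vessel, fewer than the 6 set above, and no value was computed within a run.

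On chromosome 1 the genes beside Tfap2b were silent or nearly so. Of the 3 on the side of its start, Tfap2d (42567 bases away) and the antisense gene Gm15825 had no count and the processed pseudogene Gm10075 had 50 counts over 12 libraries. Of the 3 on the other side, Gm28340 and Gm28341 had no count and Gm4849 had 16 counts in all, so none of the 6 passed the filter. The expression of Tfap2b thus had no counterpart among its neighbours in these libraries.

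The partners of AP-2 proteins include the Cited coactivators, the acetyltransferases Ep300 and Crebbp, and the inhibitors Kctd1 and Kctd15. All 12 genes of this list were tested, and in the DA 1 was called higher and 1 lower, beside 2.61% and 2.82% of all tested genes, with a median log2 fold change of -0.15 against 0.01 over all tested genes. Kctd15, which binds the activation domain of AP-2 and holds back neural crest formation, was 45.4, 41.9, 40.5, 33.5 and 16.2 CPM in the Prdm6-deficient DA and 56.9 to 97.7 CPM in control DA. The groups did not overlap (log2 fold change -1.05, SE 0.17, edgeR adjusted p = 8.31e-05), and the values within the runs were -0.83 and -1.38 without being called. Control DA had more of it than control aorta (0.95, SE 0.16, edgeR adjusted p = 0.000121), and its effect in the aorta was -0.11 (edgeR adjusted p = 0.912), with a difference between the vessels of -0.94 (edgeR adjusted p = 0.0187) that was not called. For this difference edgeR called 0 of the 12 partners, 2 had an unadjusted p under 0.05 and DESeq2 called 1. Without Prdm6-deficient DA replicate 7 edgeR called 1.

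Cited2, a coactivator that AP-2 proteins use in heart and neural tube development, was 19.5, 42.7, 18.8, 19.4 and 44.1 CPM in Prdm6-deficient DA replicates 1, 2, 5, 6 and 7 and 8.80 to 20.1 CPM in control DA. Replicates 2 and 7, where Tfap2b had no count and 1 count, were the high ones, and the other 3 overlapped with the controls. Cited2 was called at 1.08 (SE 0.24, edgeR adjusted p = 0.00287). It was no longer called without replicate 2 (0.89, edgeR adjusted p = 0.0185) or without replicate 7 (0.87, edgeR adjusted p = 0.0196). Both come from the second run, and the value was 1.73 within that run (edgeR adjusted p = 0.00769) and 0.31 within the first (edgeR adjusted p = 0.741). In the aorta its log2 fold change was 0.44 (edgeR adjusted p = 0.488), and the difference between the vessels was 0.63 (edgeR adjusted p = 0.405). In the aorta edgeR called 0 of the 12 partners, 1 had an unadjusted p under 0.05 and DESeq2 called 0. The median there was -0.04, and between the control vessels it was 0.07, while the median over all tested genes was 0 in both. Between the control vessels Kctd15 was the 1 gene called of 12, higher in the DA, where 3.16% of all tested genes were called higher.

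Of 12 genes described as AP-2 targets in other tissues, 11 were tested and Dbh was not. In the DA, Mcam was called lower and none higher, 1 of 11 where 5.43% of all tested genes were called, and the median was -0.24. There 6 of the 11 had an unadjusted p under 0.05 (edgeR), and DESeq2 called 1. Mcam, an adhesion molecule of vessel wall and melanoma cells, was 354, 319, 337, 334 and 307 CPM in the Prdm6-deficient DA and 492, 648 and 803 CPM at the lowest, the median and the highest of control DA. The groups did not overlap, and the mean of 330.3 ± 18.0 CPM (SD, n = 5) was 50.7% of control (log2 fold change -0.98, SE 0.11, edgeR adjusted p = 3.04e-07). The aorta value was 0.28 (edgeR adjusted p = 0.167), and the difference between the vessels was -1.27 (SE 0.15, edgeR adjusted p = 6.08e-06). Control DA also had more Mcam than control aorta (1.19, SE 0.10, edgeR adjusted p = 4.99e-09), in a comparison with 3.16% of all tested genes called higher and 2.19% lower. There Bcl2 was lower (-0.62, SE 0.14, edgeR adjusted p = 0.00385), a call that was lost without control aorta replicate 2 (-0.55, edgeR adjusted p = 0.0157) or control DA replicate 5 (-0.57, edgeR adjusted p = 0.0105), and with the 6 embryos as a block (-0.66, edgeR adjusted p = 0.0115). In the aorta edgeR called 0 of the 11, 2 had an unadjusted p under 0.05 and DESeq2 called 0, with a median of -0.23, and between the control vessels the median was 0.16.

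A list of 3 genes, Epas1, Edn1 and Cnn1, holds genes that earlier work describes as lowered in the DA of Tfap2b mutant mice. Of these, 2 were called lower in the Prdm6-deficient DA, where 2.82% of all tested genes were. Cnn1, a smooth muscle protein that binds actin, was 502, 411, 464, 471 and 458 CPM there and 979.8, 1421 and 1953 CPM at the lowest, the median and the highest of control DA (log2 fold change -1.65, SE 0.13, edgeR adjusted p = 2.57e-09). Edn1, the vasoconstrictor peptide endothelin, was 33.2, 25.8, 26.4, 40.2 and 31.2 CPM against 42.8, 68.0 and 91.6 CPM (-1.14, SE 0.18, edgeR adjusted p = 3.75e-05). Neither overlapped between the groups, and the share of all tested genes without overlap was not counted. Epas1, a hypoxia-inducible factor, was 38.7, 55.0, 52.3, 66.2 and 54.8 CPM in the Prdm6-deficient DA and 46.8, 58.1 and 64.6 CPM in control DA (log2 fold change -0.06, SE 0.11, edgeR adjusted p = 0.821).

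In the aorta these genes took other courses. Epas1 was called higher, beside 1.63% of all tested genes, at 70.7, 73.5, 70.7, 65.3 and 59.5 CPM in the Prdm6-deficient aorta against 33.6 to 44.3 CPM in control aorta (log2 fold change 0.78, SE 0.11, edgeR adjusted p = 3.86e-05). Edn1 (0.64, edgeR adjusted p = 0.0286) and Cnn1 (-0.32, edgeR adjusted p = 0.231) were not called. All 3 genes, and 2.65% of all tested genes, passed the test of the difference between the vessels, with -0.84 for Epas1 (SE 0.16, edgeR adjusted p = 0.00121), -1.78 for Edn1 (SE 0.25, edgeR adjusted p = 3.44e-05) and -1.33 for Cnn1 (SE 0.19, edgeR adjusted p = 3.46e-05). Between the control vessels Edn1 (1.0, edgeR adjusted p = 8.3e-05) and Cnn1 (1.57, edgeR adjusted p = 2.18e-09) were called higher in the DA, and Epas1 was at the limit of the fold threshold (0.50, edgeR adjusted p = 0.00169). The medians of the 3 genes were -1.14 in the DA, 0.64 in the aorta and 1.0 between the control vessels. Cnn1 is also a smooth muscle marker, and of the 6 markers of that list 5 were called lower in the DA (2.82% of all tested genes), from Tagln at -0.66 to Des at -3.98, with a median of -1.22. Between the control vessels all 6 were called higher in the DA (3.16% of all tested genes), with a median of 1.21, and the call of Acta2 was lost without control aorta replicate 6 (0.46) or control DA replicate 3 (0.49) or 5 (0.45), where it was below the fold threshold, and with the 6 embryos as a block (0.47, edgeR adjusted p = 0.0876). In the aorta edgeR called 0 of the 6, 3 had an unadjusted p under 0.05 and DESeq2 called 0, and the median was -0.08. The test of the difference between the vessels called 5 of the 6.

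**Figure D4:**
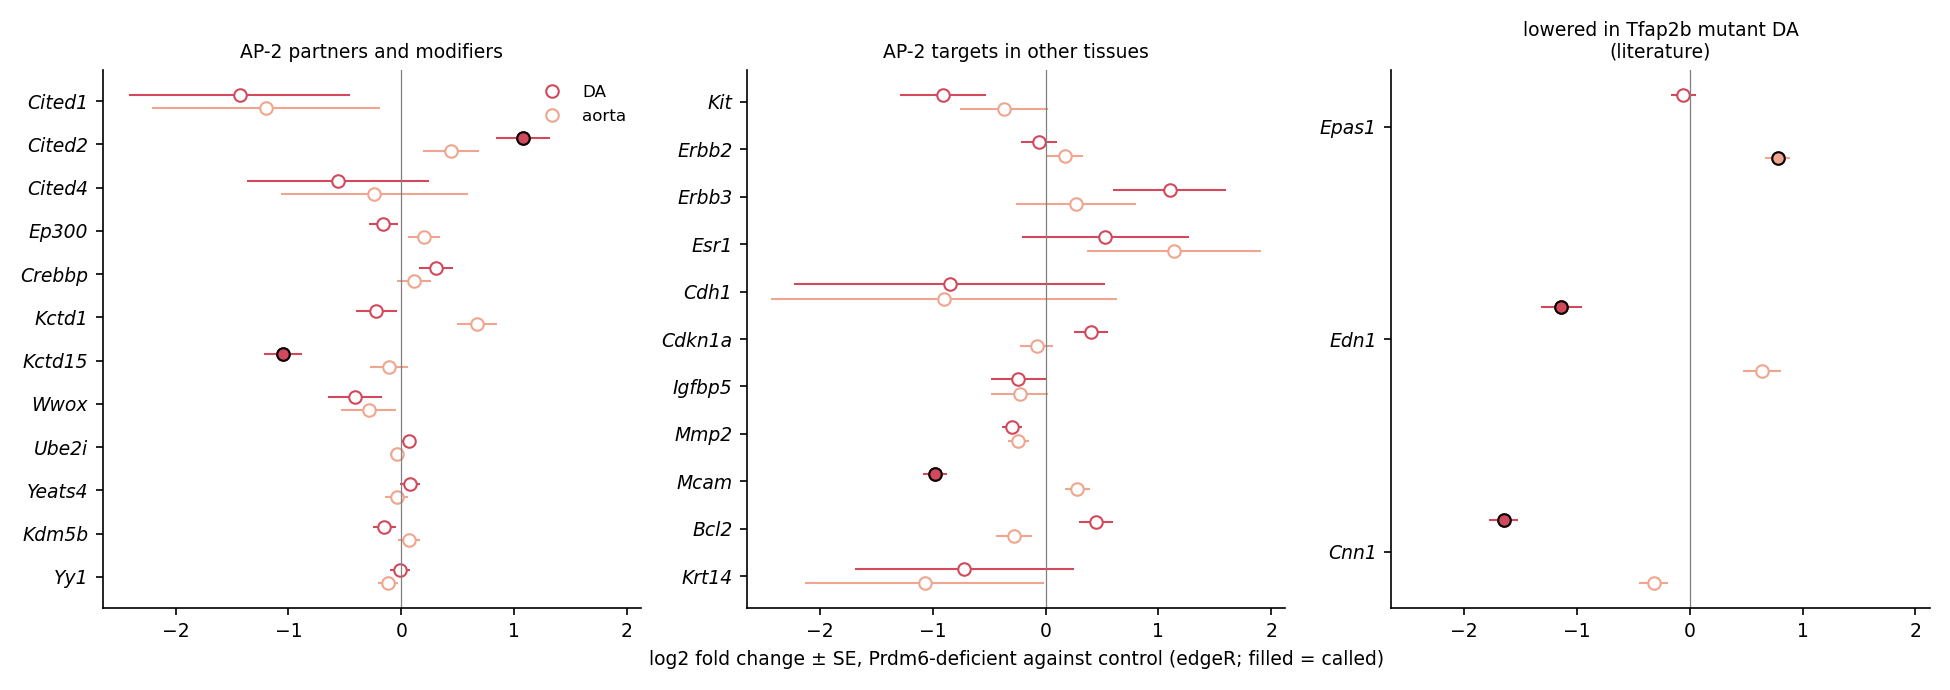
Log2 fold changes of Prdm6-deficient against control vessels on the horizontal axes for the tested AP-2 partners, the genes described as AP-2 targets and the genes described as lowered in Tfap2b mutant DA, with bars of 1 SE from edgeR and filled marks for called genes. Filled in the DA are Cited2 at 1.08, Kctd15 at -1.05, Mcam at -0.98, Edn1 at -1.14 and Cnn1 at -1.65, and in the aorta Epas1 at 0.78.

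AP-2 proteins act in the neural crest beside other transcription factors, and 12 of 14 such genes were tested. In the DA 4 were called higher (Snai2, Twist1, Ets1 and Hand2) and 1 lower (Sox9), beside 2.61% and 2.82% of all tested genes, with a median of 0.84. Sox9, a factor of neural crest and cartilage, was 7.23, 5.91, 3.34, 3.56 and 3.14 CPM in the Prdm6-deficient DA and 14.2, 29.8 and 47.6 CPM at the lowest, the median and the highest of control DA (log2 fold change -2.71, SE 0.32, edgeR adjusted p = 9.64e-07). Nor did the aorta groups overlap, at 0.901, 1.15, 1.02, 0.977 and 1.51 CPM against 2.08 to 6.16 CPM (-1.78, SE 0.34, edgeR adjusted p = 0.00122), and control DA was above control aorta (2.98, edgeR adjusted p = 7.25e-08). Sox9 was also higher in Prdm6-deficient DA than in Prdm6-deficient aorta (2.05, edgeR adjusted p = 0.0028), a call lost when any of Prdm6-deficient DA replicates 1 and 2 or Prdm6-deficient aorta replicates 1 to 4 was left out (edgeR adjusted p = 0.0126 at most). Ets1, a factor of vessel wall and blood cells, was 121, 89.4, 157, 105 and 118 CPM in the Prdm6-deficient DA and 30.6 to 56.4 CPM in control DA (1.40, SE 0.14, edgeR adjusted p = 1.13e-07). Without Prdm6-deficient DA replicate 1 or 7 the call of Snai2 was lost (edgeR adjusted p = 0.0187 and 0.0165).

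In the aorta Twist1 (1.11, edgeR adjusted p = 1.38e-06) and Ets1 (1.27, edgeR adjusted p = 1.77e-06) were called higher and Sox9 lower, beside 1.63% and 0.826% of all tested genes, with a median of 1.05. Between the control vessels Sox9 was higher and Hand2 lower in the DA (-1.80, edgeR adjusted p = 8.42e-06), beside 3.16% and 2.19% of all tested genes, with a median of -0.29. The test of the difference between the vessels called 0 of the 12 with edgeR and 0 with DESeq2, and 4 had an unadjusted p under 0.05. Of the neural crest factors, Sox9 thus fell with Tfap2b in the Prdm6-deficient DA, and 4 rose.

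Other cells of the samples were followed by markers, and those of melanocytes are given first. The sum of 8 melanocyte markers, of which Dct was the most abundant in control DA, was 33.1, 94.3 and 237 CPM at the lowest, the median and the highest of control DA and 3.43, 2.44, 2.75, 3.68 and 4.96 CPM in the Prdm6-deficient DA. In control aorta it was 2.17, 3.64, 3.64, 15.7, 5.71 and 3.45 CPM in replicates 1 to 6 and in Prdm6-deficient aorta 5.09, 1.88, 1.20, 2.65 and 3.07 CPM. Control DA was above every other group, and control aorta replicate 4, the highest of the aorta libraries for Tfap2b, was the highest of them here too, with 7.91 CPM of Dct. Replicate 5, next for Tfap2b, had no count of Dct and counts in 2 of the 8 markers. The defining gene Dct had at least 349 counts in each control DA library and 1 count in all Prdm6-deficient DA libraries together, where Tyr and Slc45a2 had none, while Mitf, which other cells also express, had 30 to 98 counts. Pmel had 31 counts and Mlana 25 counts in the Prdm6-deficient DA libraries together. Pmel passed 3 counts in 2 of these libraries and Mlana in 1. Of 7 tested markers 4 were called lower in the DA (Dct, Tyrp1, Tyr and Pmel), beside 2.82% of all tested genes, with a fitted median of -7.83 that became -3.59 with the 4 genes at 3 counts or fewer set to that floor. The call of Tyr was lost without any of the 5 Prdm6-deficient DA libraries or without control aorta replicate 4 (edgeR adjusted p = 0.018 at most), and without control DA replicate 1, 3, 4, 5 or 6 Tyr did not pass the filter.

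Between the control vessels Dct, Tyrp1, Pmel and Mitf were called higher in the DA, beside 3.16% of all tested genes, with a median of 4.42, or 3.62 with 1 gene at the floor. With the 6 embryos as a block Mitf was not called (1.79, edgeR adjusted p = 0.0184), and DESeq2 did not call Tyrp1 (adjusted p = 0.0118). In the aorta edgeR called 0 of the 7, 3 had an unadjusted p under 0.05 and DESeq2 called 0, with a median of -2.88, or -1.13 with 5 genes at the floor. Without control aorta replicate 4 the fitted median, over the 6 genes that then passed the filter, was -0.51 there and 7.30 between the control vessels. The test of the difference between the vessels called 0 with edgeR and 1 with DESeq2, and 3 had an unadjusted p under 0.05. Within control DA the order of the libraries was not the same: replicate 6 had 115 CPM of melanocyte markers and 19.1 of Tfap2b, and replicate 7 had 52.5 and 45.8. In Prdm6-deficient DA replicates 1, 5 and 6 Tfap2b was at 0.862 to 3.18 CPM with no count of Dct, Tyr or Tyrp1. Each of these libraries had counts in 2 of the 8 markers. Beyond these values, the part of melanocytes in the Tfap2b level was not tested.

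**Figure D5:**
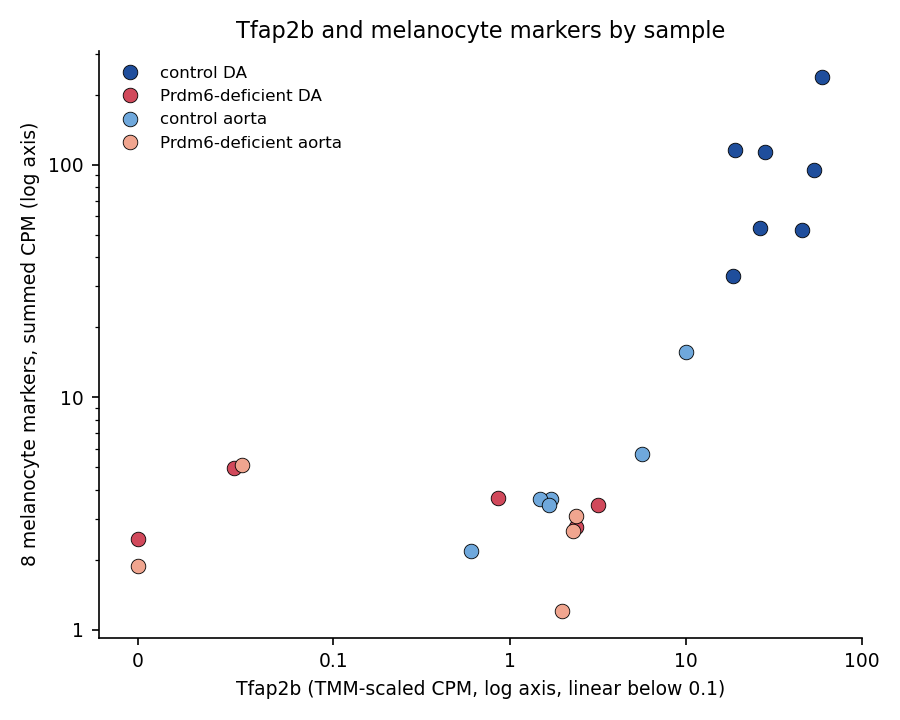
Tfap2b on the horizontal axis and the summed level of 8 melanocyte markers on the vertical axis, both in TMM-scaled CPM on log axes, the former linear below 0.1, with 1 point per library. The control DA libraries lie at the upper right, with sums of 33.1 to 237 CPM, control aorta replicate 4 comes next at 15.7 CPM, and the Prdm6-deficient DA libraries lie at or below 4.96 CPM.

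Of the Schwann cell markers, Fabp7 and Gfra3 went the other way, while the groups overlapped in the sum of all 8. This sum was 74.9 to 157 CPM in the Prdm6-deficient DA. In control DA its median was 29.7 CPM. The highest sum of both groups, 223 CPM, was that of control DA replicate 7, and the next control DA library, replicate 4, had 37.4 CPM. Fabp7 was 18.0, 9.2, 8.61, 10.6 and 14.1 CPM in Prdm6-deficient DA replicates 1, 2, 5, 6 and 7 and 0 to 3.32 CPM in control DA. Gfra3 was 10.5, 5.34, 8.48, 10.1 and 13.1 CPM against 0 to 2.32 CPM, and neither gene overlapped between the groups. Of 8 genes Fabp7 (log2 fold change 3.09, edgeR adjusted p = 0.00454) and Gfra3 (2.71, edgeR adjusted p = 0.000788) were called higher, beside 2.61% of all tested genes, with a median of 1.53. Without control DA replicate 7 the number called was 5 and the median 2.78. With any 1 of control DA replicates 2 and 5 or Prdm6-deficient DA replicates 1 and 7 left out, the call of Fabp7 was lost (edgeR adjusted p = 0.0141 at most). That call was also lost with the run as a covariate (3.11, edgeR adjusted p = 0.0109) and without the pooled samples (2.97, edgeR adjusted p = 0.0256). The same held without the controls that carry Cre (2.95, edgeR adjusted p = 0.0118). In the aorta edgeR called 0 of the 8, 2 had an unadjusted p under 0.05 and DESeq2 called 0, with a median of 1.15, and the difference between the vessels was 2.27 for Fabp7 (edgeR adjusted p = 0.263) and 1.45 for Gfra3 (edgeR adjusted p = 0.371).

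Other lists were measured in the same way. Of 5 cartilage genes, Acan (1.61, edgeR adjusted p = 6.73e-05) and Hapln1 (1.91, edgeR adjusted p = 2.28e-06) were called higher in the DA (2.61% of all tested genes), with a median of 1.47. Without control aorta replicate 4 this median was 0.51, over the 4 genes then tested. The means of Col9a1 (10.6 CPM in control DA, 6.24 in Prdm6-deficient DA) and Col2a1 (0.944 and 0.633) were lower, and that of Matn3 (0.154 and 0.439) was higher. In the aorta Hapln1 was called higher (1.66, edgeR adjusted p = 4.55e-05), beside 1.63% of all tested genes. The difference between the vessels was 1.90 for Acan (edgeR adjusted p = 0.00179). The brown fat genes Adipoq and Plin1 were called lower in the DA, 2 of 3 tested (2.82% of all tested genes), but the brown fat sum was highest in control DA replicates 2 and 7, and 0 were called when either of these or any 1 of the Prdm6-deficient DA libraries was left out. Adipoq was lost without control DA replicate 2 (edgeR adjusted p = 0.0109) or 7 (0.0122), or any Prdm6-deficient DA library (0.017 at most), and Plin1 without any Prdm6-deficient DA library (0.0262 at most), Prdm6-deficient aorta replicate 4 or 5 or control aorta replicate 5 (0.0108 at most). Plin1 did not pass the filter without control DA replicate 2, 4, 6 or 7 or control aorta replicate 2. In the DA edgeR called 0 of 6 endothelial genes (1 at an unadjusted p under 0.05, 0 by DESeq2), 0 of 5 leukocyte genes (0 and 0), 0 of 4 sympathetic neuron genes (1 and 0), 0 of 5 epithelial genes (1 and 0), 0 of 5 heart muscle genes (2 and 0) and 0 of 1 thymus gene (0 and 0). The medians of these lists in the DA were 0.05, 0.17, 0.97, -0.72, -1.08 and 1.6, and that of the brown fat genes was -8.35, or -5.09 with 2 genes at the floor. The heart muscle median of -1.08 became 1.07 without control DA replicate 1, with 1 gene called. In the aorta, where edgeR also called 0 in the lists of leukocytes (4 at an unadjusted p under 0.05, 1 by DESeq2), sympathetic neurons (0 and 0), epithelia (0 and 0), heart muscle (0 and 0), brown fat (2 and 0) and thymus (1 and 0), the endothelial receptors Tie1 and Tek were called higher, 2 of 6 (1.63% of all tested genes), and each call was lost without control aorta replicate 1, 3 or 4, among others (edgeR adjusted p at most 0.02 and 0.0225). Whether shares of these cells bear on the AP-2 genes was not tested.

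The genes most like Tfap2b were ranked by Pearson's r of log2 CPM over the 23 samples, among 12978 genes. The highest values were those of Tnmd (0.924), Gna14 (0.905), Nell1 (0.884), Tacc1 (0.882), Kitl (0.881), F3 (0.88), Igfbp2 (0.868), Grik2 (0.865), Btc (0.859) and Fgfr2 (0.856). Tnmd, a membrane protein best known from tendon, was 12.9, 18.9 and 26.6 CPM at the lowest, the median and the highest of control DA and 6.55, 1.99, 4.81, 3.56 and 2.06 CPM in the Prdm6-deficient DA. Kitl, the ligand of the receptor Kit, on which melanocytes depend, and Btc, a ligand of the EGF receptor, are secreted or shed factors. The lowest values were those of Atp8b2 (-0.841), Cited2 (-0.84), Itm2c (-0.836), Sdcbp (-0.824) and Fgl2 (-0.818), so that the AP-2 coactivator Cited2 ran against Tfap2b over these samples. The samples share 4 groups and these values include the distance between control DA and the others, so they are descriptions without a test, and the direction of these genes between the groups is in part set by the choice. Centred on the group means, the genes with the highest values ran from 0.42 (Btc) to 0.865 (Tnmd). Those with the lowest values ran from -0.612 (Cited2) to -0.231 (Fgl2). After each gene was centred on its group means, the highest were Tnmd (0.865), Sema3c (0.838), Dpp10 (0.794), Mab21l2 (0.789) and Micu2 (0.775). Tfap2b had 1 count or none in Prdm6-deficient DA replicates 2 and 7 and Prdm6-deficient aorta replicates 1 and 2, all of the second run. Centring on group means does not remove the run, and the part of the run and of low counts in these values was not tested.

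The file of RefSeq promoter windows used here, of 300 bases on build GRCm38.p6, has entries for 4 of the 5 AP-2 genes and none for Tfap2c. The consensus GCCNNNGGC was in none of the 2 windows of Tfap2a, the 1 of Tfap2b, the 3 of Tfap2d and the 1 of Tfap2e, and it was in 16.6% of all 32851 windows. Of the 10 genes most like Tfap2b, 9 have an entry and none a match, where 18.5% of all 27025 genes with an entry have a match. Among the other ranked genes a match was found for Atp8b2 in both of its windows and for Sema3c in its 1 window. These are shown because they are the matches among the genes ranked by likeness, with the 9 letters of the match in capitals and 10 bases on each side. They lie at chr3:89963339-89963367 on the minus strand (in the UTR of Atp8b2-202 and Atp8b2-210), chr3:89960608-89960636 on the minus strand (partly in the UTR of Atp8b2-201) and chr5:17574710-17574738 on the plus strand (in the UTR of Sema3c-201 and Sema3c-204).
Atp8b2, upper window: cccgccccccGCCCGTGGCcgcagccgtc
Atp8b2, lower window: gtggggcggaGCCTGGGGCgtgggctcca
Sema3c: ccgagcgctcGCCCCCGGCgcccggccac
A match is a description of the letters and says nothing on binding in these vessels.

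These results have limits. The samples are microdissected pieces of vessel, and markers of melanocytes, Schwann cells, heart muscle and brown fat differed between libraries. The Prdm6-deficient DA group has 5 samples, 2 of them pools, and genotype and run of animal numbers are not spread evenly. Most controls lack Cre, and effects of Cre alone were not tested. The 1 control DA sample that carries it, replicate 2, had 18.6 CPM of Tfap2b, the lowest of its group. The control DA samples without Cre had 19.1 to 59.7 CPM. Tfap2b had few counts in the aorta and in Prdm6-deficient vessels, which makes its folds there wide. Where groups are said not to overlap, the share of all tested genes without overlap was not counted. Such a statement therefore does not set a gene apart from the rest. RNA was measured at a single age, and AP-2 protein, its binding to DNA and the order of the changes were not.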

How the data were processed

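The authors filtered paired-end reads for base quality, removed adapters, aligned them to mm10 with STAR and estimated expression with RSEM against GENCODE, and the table deposited by the authors holds expected counts that RSEM gave for each gene, not normalized (STAR and RSEM versions are not given in the sources used here). Expected counts were rounded to whole numbers. RSEM divides reads that fit several genes, and counting by strand is not stated. Symbols, coordinates and exon lengths came from GENCODE M21. Of 54752 identifiers, 54723 matched without their version. Samples were grouped by their labels.

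edgeR 4.0.16 in R 4.3.3 was used with filterByExpr, TMM scaling, 1 mean per group over 23 samples and the quasi-likelihood test, adjusted by Benjamini-Hochberg over 16463 genes. The SE is the log2 fold change over the square root of F. The procedure was tested on simulated data. DESeq2 1.42.0, RLE scaling, no filter, blocks and omission of samples served as alternatives, those for list genes chosen after seeing the data. Library pairs within groups differed by more than sampling noise. Within a group, replicates came from separate embryos or pools. Some DA and aorta samples of either genotype share an embryo, and the main fit treats them as independent. Their deviations from group means had a median r of 0.02 (0 to 0.08, 10 pairs). A block for the embryo was fitted between the control vessels only.

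The genes named are the AP-2 members and Prdm6, list genes called in a comparison or, in some lists, most abundant, the 10 most and 5 least like Tfap2b over all samples, the 5 most like it within groups, and 3 neighbours on each side. Mbp was added after seeing its values. Members and lists were chosen with earlier results of these data known. Figures were drawn with matplotlib 3.10.9.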

Additional observations from a re-analysis of the deposited data

Results flagged for a closer look

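Of 14 combinations of a gene (AP-2 members or Prdm6) and a group with values to examine, 2 held a sample far from the others of its group. The rule is set so that chance passes it in about 1 in 20 groups. Both are of Tfap2e, which had no count in most libraries, and that rate need not hold for such counts. Tfap2e was 0.723 CPM (13 counts) in control DA replicate 3, while the other 6 control DA libraries had 1 count at most. It was 0.303 CPM (6 counts) in control aorta replicate 1 and had no count in the other 5 control aorta libraries. Control DA replicate 3, from a PRDM6wt/wt embryo of the first run of animal numbers, also had the highest Tfap2b (59.7 CPM), Tfap2a (4.17 CPM) and melanocyte marker values (237 CPM) of its group. Control aorta replicate 1 had 0.606 CPM of Tfap2b, the lowest of its group.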

How the results depend on the processing

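Tfap2b kept its direction in the DA (-10.05 to -4.19 over 10 settings, -5.40 to -4.48 with each library left out) and was called in every setting except within the first run, where it was -4.19 (edgeR adjusted p = 0.0136). Between the control vessels it was called in every setting (3.14 to 3.75, and 3.12 to 4.0 with each library left out). In the aorta (-2.26 to -1.39, and -1.69 to -0.73) and for the difference between the vessels (-3.62 to -3.05, and -4.06 to -3.09) it was called in none. Between the Prdm6-deficient vessels its sign changed with a replicate block (0.70) and over the libraries left out (-0.67 to 0.25). There Tfap2a changed sign with a replicate block (-0.16), with the run as a covariate (-0.62), without the pooled samples (-0.02), within the second run (-7.09) and over the libraries left out (-0.43 to 0.71), and Prdm6 within the second run (-0.05). Tfap2a in the DA was -1.27 to 0.04 over the libraries left out. The causes were not tested.

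The number of genes called in the DA was 784 to 948 over the libraries left out, and 61 within the first run and 147 within the second, which hold fewer samples. In the aorta it was 325 to 441, and 702 with only the groups compared. Between the control vessels it was 775 to 963, and 550 within the second run. Between the Prdm6-deficient vessels it was 22 to 58, and 137 with DESeq2, 16 with a replicate block, 83 with only the groups compared, 15 without the pooled samples, 2 within the first run and 88 within the second. The difference between the vessels gave 361 to 506. Replicate numbers do not pair the samples: deviations from group means of samples with the same number but another animal had a median r of 0 (-0.05 to 0.16, 25 pairs). With a replicate block 780 genes were called in the DA, with Tfap2b at -4.70. The Tfap2a relation without TMM factors was r = 0.71 and rho = 0.82 in control DA (exact permutation p = 0.0341 for rho, adjusted 0.0682) and r = -0.35 and rho = -0.31 in control aorta, where rho with them was -0.60.

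Of 24 list genes called in the DA, 18 kept the call whichever library was left out, as did 5 of 7 in the aorta, 16 of 19 between the control vessels and 9 of 9 for the difference between the vessels, and 0 reversed in any setting. In the DA, 18 of the 24 kept the call in every setting that used both runs, and 1 did when the fits within a run, with fewer samples, were counted too. The difference between the vessels was not fitted within a run, and the aorta and the control vessels were not compared within the first run, which holds 1 control aorta. With the Prdm6-deficient vessels of the second run Tfap2b did not pass the filter. At this depth a gene under 3 counts per library, as Tfap2c and Tfap2d, cannot be told from one not expressed.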
